A study of Rattus norvegicus with 24 samples.

Results

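Hexachloroethane and 1,2,3-trichloropropane are short chlorinated alkanes, both listed as carcinogens by the study's design, and their effects on the rat liver were set against each other. The comparison used 8 of the study's 24 arrays, 4 for each compound, chosen by the compound named in the label. Male F344 rats, an inbred strain, were bought at 4 weeks of age and carry the age label 5W. Each group of 4 rats received its compound once daily by gavage for 28 days in Corn oil at 5 ml/kg, hexachloroethane at 500 mg/kg/day and 1,2,3-trichloropropane at 50 mg/kg/day. On each array the Cy3 channel held liver RNA of 1 treated rat and the Cy5 channel held RNA pooled from the vehicle rats, so a log2 ratio of treated over vehicle was read for each rat. No array had the dyes exchanged. The 2 compounds lay on different slides and were scanned on different days, and although the treatment protocol gives each compound a control group, it is not stated which rats went into which pool. Compound, dose, slide, scan day and vehicle pool therefore cannot be told apart in any difference below.

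The liver meets foreign compounds with a few sensor proteins. CAR and PXR, nuclear receptors of hepatocytes, switch on cytochromes P450, carboxylesterases and transferases that make the compound more soluble. The aryl hydrocarbon receptor (AhR) does the same for Cyp1a1 and Cyp1a2, and Nrf2 switches on enzymes that supply and use glutathione when reactive products appear. Chlorinated alkanes are broken down both by P450 oxidation and by conjugation with glutathione, which makes these enzyme families the usual place to look.

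Between 61.6 and 68.6% of probes were well above background in the treated channel of the 8 arrays, and the number of arrays limits the precision. All 10 hepatocyte markers tested were well above background on all 8 arrays, with a median level of 16.9 under hexachloroethane and 17.2 under 1,2,3-trichloropropane (log2 intensity of the treated channel). Between the compounds 1 of the 10 hepatocyte markers was called (Tat) and 1 of 10 markers of Kupffer cells and macrophages. None of 8 lymphocyte, 5 endothelial, 12 stellate and 6 bile duct markers was called. At an adjusted p under 0.05 without a fold limit, 4 lymphocyte markers were lower under hexachloroethane and 0 higher. Of the stellate markers 3 were lower and 2 higher, beside 18.1% and 16.9% of all genes. Only 6 of the 8 lymphocyte markers were well above background in the treated channel of all 8 arrays. The median difference of the 8 was -0.11 in the treated channel and 0.16 in the vehicle channel, hexachloroethane minus 1,2,3-trichloropropane. In whole liver, fewer cells of a type and less RNA per cell cannot be told apart. Array 1 of hexachloroethane stood apart at 148 genes, by over 2-fold from the median of the other 3 arrays, against 30 to 31 genes for each of those 3 and 51 to 90 for the arrays of 1,2,3-trichloropropane. Without it, 159 genes were called between the compounds in place of 160, with 137 of them in common. The split was then 81 higher and 78 lower under hexachloroethane, in place of 93 and 67.

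The limma fit counted a gene as called where its adjusted p (Benjamini-Hochberg) was under 0.05 and the difference at least 2-fold, a log2 difference of 1. Of 11500 genes tested, 160 were called between the compounds (1.39%), 93 with a higher ratio under hexachloroethane (0.809%) and 67 with a lower one (0.583%). At the adjusted p alone 4023 genes passed (35%), 1946 higher (16.9%) and 2077 lower (18.1%), and for 3639 genes (31.6%) no array of one compound overlapped an array of the other. Against its own vehicle pool, hexachloroethane changed 105 genes (0.913%), 55 upward and 50 downward. By the same rule 1,2,3-trichloropropane changed 105 genes (0.913%), 34 upward and 71 downward. The median difference over all genes was -0.01.

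**Figure D1:**
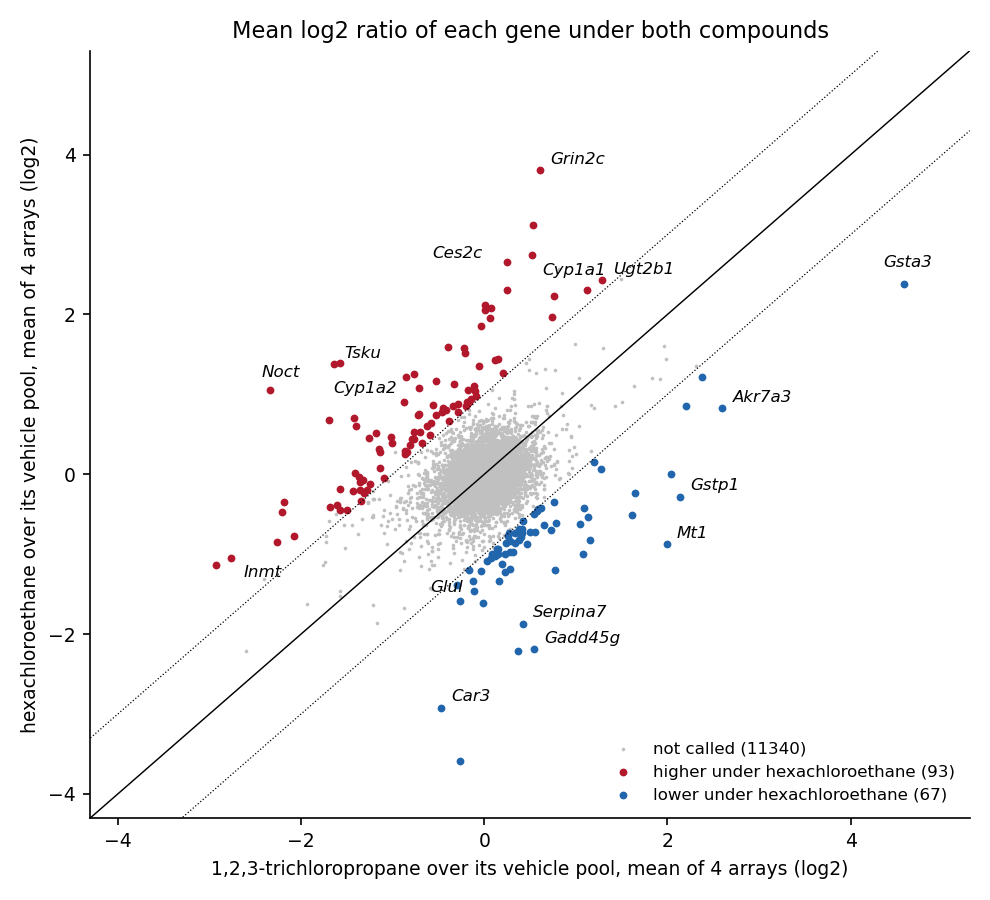
Each point is 1 of 11500 genes, placed by its mean log2 ratio of treated over vehicle pool under 1,2,3-trichloropropane (x axis) and under hexachloroethane (y axis), 4 arrays each; the solid line marks equal ratios and the dotted lines a 2-fold difference. The 160 called genes lie outside the dotted lines, with Noct, Grin2c and Tsku farthest above and Mt1, Gadd45g and Car3 among those farthest below.

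Because every value is a ratio, a difference between the compounds can lie in the treated channel, in the vehicle channel, or in both. The vehicle channels of the 2 slides were compared directly, and 199 genes were called between them (1.73%), 50 higher and 149 lower on the hexachloroethane slide. The vehicle channels of a slide were taken as repeat readings of the same pool. These calls therefore rest on technical spread, whereas the treated channel calls rest on the spread between rats, and the counts are not on an equal footing. Of the 160 genes called between the compounds, 66 were also called in the same direction in the treated channel alone. Another 46, with 1 gene in both groups, were called in the vehicle channel in the direction that adds to the difference of ratios, and 49 were called in neither channel on its own. For 63 of the 160 the vehicle part of the difference was larger than the treated part, and for 32 the treated channels differed in the opposite direction from the ratios. The treated part is therefore given beside most genes below, and the ratio difference equals, within rounding, the treated part minus the vehicle part.

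**Figure D2:**
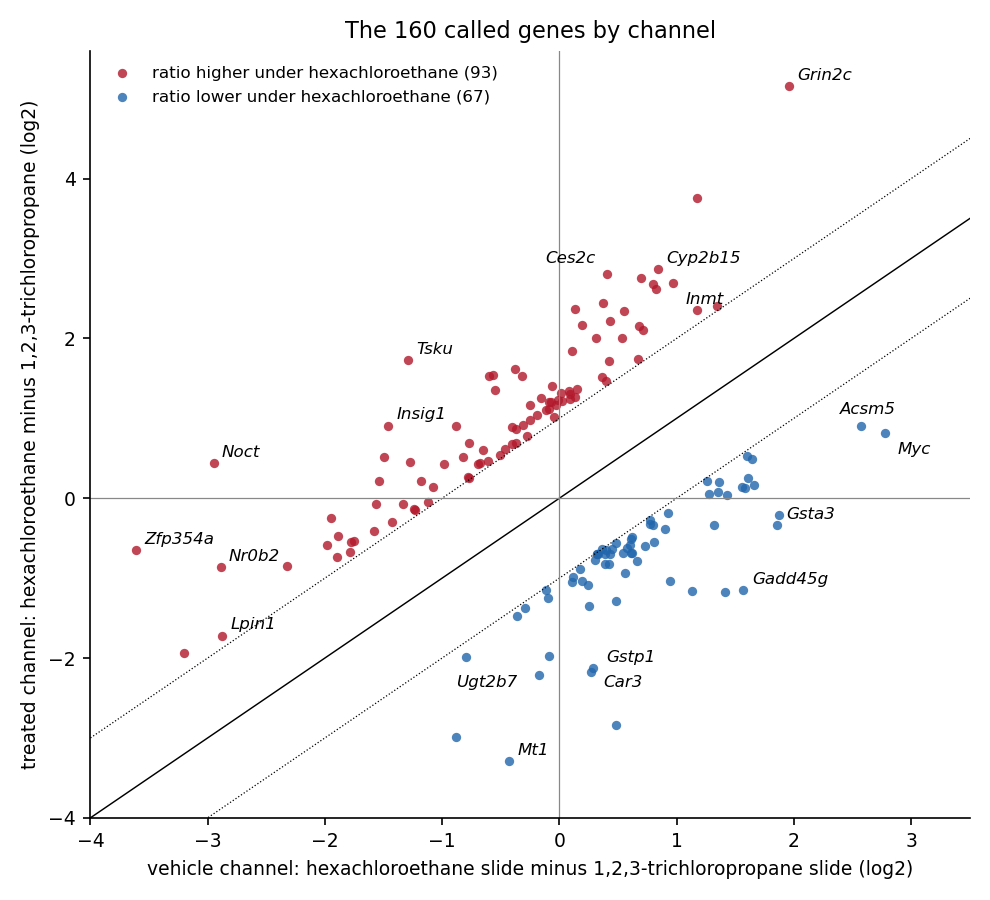
The 160 called genes by the difference between slides in the vehicle channel (x axis, log2) and the difference between compounds in the treated channel (y axis, log2); the solid line marks equal ratios and the dotted lines the 2-fold limit. Ces2c, Cyp2b15, Gstp1, Ugt2b7 and Mt1 stand apart along the y axis, whereas Noct, Zfp354a, Lpin1, Myc and Acsm5 lie far out along the x axis.

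The vehicle channels of the hexachloroethane slide and of the tetracycline hydrochloride slide stood apart from those of the other 4 slides. Compared with the other 4 slides of corn oil compounds, the hexachloroethane slide gave between 140 and 217 called genes in the vehicle channel. The 6 pairs among those 4 slides gave between 4 and 42, and all these calls rest on technical spread. The slide of tetracycline hydrochloride, whose vehicle was Water and which was scanned on the same day as the hexachloroethane slide, gave 92 to 129 with the same 4 slides and 47 with the hexachloroethane slide. For Noct, the vehicle level was 8.34 on the hexachloroethane slide (log2 intensity, mean of 4 arrays), 11.29 on the 1,2,3-trichloropropane slide, between 10.32 and 11.54 on the other 3 corn oil slides and 8.89 on the tetracycline hydrochloride slide. Myc, the growth-promoting transcription factor, was at 11.82 on the hexachloroethane slide, 9.04 on the 1,2,3-trichloropropane slide and between 9.62 and 10.05 on the other 4. The part of pool, slide and scan day in these levels was not tested.

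**Figure D3:**
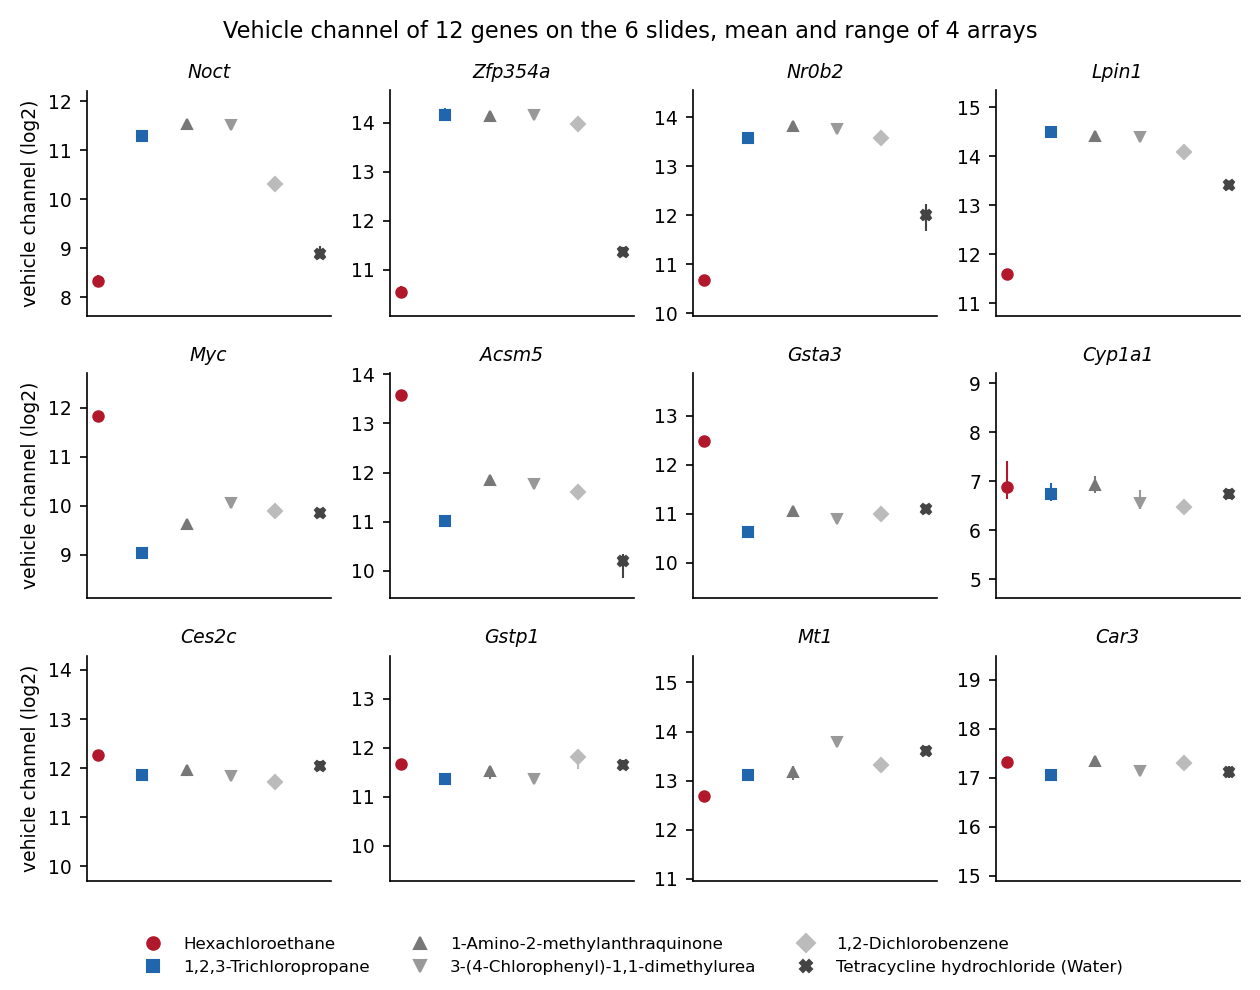
Vehicle channel level (log2 intensity) of 12 genes on the 6 slides, as the mean and range of 4 arrays, with every panel spanning the same height. For Noct, Zfp354a, Nr0b2, Lpin1, Myc, Acsm5 and Gsta3 the hexachloroethane slide lies apart from the other 4 corn oil slides, while Ces2c, Gstp1 and Car3 stay within a narrow band.

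Enzymes under CAR and PXR were called in both directions. Of 17 such phase I genes tested, 7 were called higher and 3 lower under hexachloroethane, beside 0.809% and 0.583% of all genes, with a median difference of 0.43 beside -0.01. The 3 called lower, named here after their values were seen, were the aldehyde dehydrogenases Aldh1a4 (-1.35 ± 0.24) and Aldh1a1 (-1.16 ± 0.23) and the P450 Cyp3a18 (-1.10 ± 0.11), and their treated channels differed by 0.25, 0.20 and -0.49. Cyp2c37 and Cyp2c6v1 are P450 enzymes of drug and steroid oxidation. Their probes are printed here because they share a run of 32 bases, given in capitals, so that the readings cannot be taken as independent:
Cyp2c37: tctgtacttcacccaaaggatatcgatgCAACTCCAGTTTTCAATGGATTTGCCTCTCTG
Cyp2c6v1: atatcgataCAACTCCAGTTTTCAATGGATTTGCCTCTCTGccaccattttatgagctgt

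The Cyp2c37 ratios were 2.15, 1.95, 2.09 and 2.28 under hexachloroethane and 0.22, -0.46, -0.08 and 0.37 under 1,2,3-trichloropropane. The 4 rats given hexachloroethane were alike and far above the other 4, for a difference of 2.10 ± 0.16 (SE, n = 4 per group; adjusted p = 1.23e-08). Cyp2c6v1 differed by 2.01 ± 0.14 (adjusted p = 2.22e-09) between the same rats. In the treated channel the difference was 1.54 for Cyp2c37 and 1.62 for Cyp2c6v1, so most of it lay in that channel.

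Cyp2b15, a P450 of the phenobarbital-inducible family, had ratios of 2.12, 1.87, 2.03 and 2.17 under hexachloroethane. Under 1,2,3-trichloropropane they were 0.14, -0.28, -0.01 and 0.20, which is no change against vehicle past the threshold. The difference was 2.03 ± 0.11 (adjusted p = 3.53e-10), and it was larger in the treated channel, at 2.87, since its vehicle level was 0.84 higher on the hexachloroethane slide. Por, the reductase that hands electrons to all liver microsomal P450 enzymes, was at 0.87 ± 0.10 (SD, n = 4) under hexachloroethane and -0.56 ± 0.17 under 1,2,3-trichloropropane. Neither value passed the 2-fold limit against vehicle, but the difference of 1.43 ± 0.14 did (adjusted p = 1.43e-07), and 1.26 of it lay in the treated channel. The classic marker Cyp2b1 was not among the genes tested.

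Carboxylesterases were called in the Ces2 family. These enzymes cut ester and amide bonds in drugs and lipids. The 3 members of the Ces2 family tested were called higher under hexachloroethane, beside 0.809% of all genes. None of the other 4 genes of the list was called, with differences between 0.02 and 0.13. The Ces2c ratios were 2.64, 2.20, 2.75 and 2.98 under hexachloroethane against 0.37, 0.20, 0.29 and 0.12 under 1,2,3-trichloropropane, a difference of 2.40 ± 0.17 (adjusted p = 2.88e-09). Ces2 differed by 2.05 ± 0.17 (adjusted p = 2.78e-08), and its array values followed those of Ces2c closely. The 2 probes meet end to start, since the last 12 bases of the Ces2 probe are the first 12 of the Ces2c probe, in capitals, and the pair is therefore not taken as 2 independent readings:
Ces2: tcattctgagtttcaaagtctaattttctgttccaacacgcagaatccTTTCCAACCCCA
Ces2c: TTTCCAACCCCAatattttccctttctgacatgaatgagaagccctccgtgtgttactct

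Ces2a added a reading from a separate probe. Its ratios ran from 1.06 to 1.17 under hexachloroethane and from -0.51 to -0.14 under 1,2,3-trichloropropane, with no overlap, and it differed by 1.47 ± 0.09 (adjusted p = 1.02e-09). In the treated channel the differences of the Ces2 genes were 2.81 for Ces2c, 2.75 for Ces2 and 2.15 for Ces2a, each larger than in the ratio.

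The AhR targets Cyp1a1 and Cyp1a2, which oxidise planar aromatic compounds, were both higher under hexachloroethane. They were 2 of 6 AhR targets tested, beside 0.809% of all genes called higher. For Cyp1a1 the ratios were 3.43, 0.98, 3.09 and 3.51 under hexachloroethane and 0.28, 1.41, 0.38 and 0.01 under 1,2,3-trichloropropane. Array 2 departed from its group on both sides, low in the one and high in the other, so the groups overlapped. The measured difference was 2.23 ± 0.46 (adjusted p = 0.000764), with 2.37 in the treated channel. It rests in part on dim spots, since under 1,2,3-trichloropropane the probe was well above background on 2 of 4 arrays in the treated channel and 1 of 4 in the vehicle channel, against 4 of 4 in both channels under hexachloroethane. Cyp1a2 gave 0.87, 1.04, 1.02 and 0.69 under hexachloroethane and -0.64, -1.20, -0.89 and -0.79 under 1,2,3-trichloropropane. The compounds thus sat on either side of vehicle, 1.79 ± 0.20 apart (adjusted p = 8.55e-07), and the treated channel gave 2.22. The other 4 AhR targets tested were not called, among them Nqo1 with 1.20 under hexachloroethane and 1.03 under 1,2,3-trichloropropane, a gene singled out here after its values were seen. At the adjusted p alone 3 of the 6 were higher and 1 lower under hexachloroethane, beside 16.9% and 18.1% of all genes. The lower one was Ugt1a6, by -0.43 ± 0.11 (adjusted p = 0.00345).

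Grin2c, a subunit of the NMDA glutamate receptor known mainly from the brain, had the largest increase against vehicle among the named genes under hexachloroethane. Its ratios were 4.01, 3.02, 4.06 and 4.15 there and 0.74, 0.47, 0.73 and 0.52 under 1,2,3-trichloropropane. All 4 rats given hexachloroethane were far above the others, by 3.19 ± 0.23 (adjusted p = 5.05e-09). The treated channels differed by 5.16, because the vehicle level was also 1.96 higher on the hexachloroethane slide. The probe was well above background in the vehicle channel of 2 of the 4 arrays of 1,2,3-trichloropropane.

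Among glutathione transferases, Gstp1 and Gsta3 were called. These enzymes join glutathione to reactive compounds, and of 16 tested, 0 were called higher and 2 lower under hexachloroethane, beside 0.809% and 0.583% of all genes, with a list median of -0.10. Gstp1, the placental form that marks preneoplastic foci in rat liver, gave -0.45, -0.27, -0.32 and -0.10 under hexachloroethane and 1.46, 2.64, 2.62 and 1.81 under 1,2,3-trichloropropane. All 4 rats given 1,2,3-trichloropropane were above vehicle and none given hexachloroethane was, for a difference of -2.42 ± 0.20 (adjusted p = 3.05e-08), of which the treated channel held -2.13. Gsta3 was the most increased named gene under 1,2,3-trichloropropane. Its ratios were 5.24, 4.24, 4.18 and 4.66 under that compound and 2.48, 2.24, 2.31 and 2.5 under hexachloroethane, both called against vehicle. The difference of -2.20 ± 0.39 (adjusted p = 0.000228) lay mainly in the vehicle channel, where Gsta3 was 1.86 higher on the hexachloroethane slide, and the treated channels differed by only -0.34 (adjusted p = 0.508).

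Among 25 genes of glutathione supply, reductases and peroxidases, which are known Nrf2 targets, 1 was called in each direction. Of all genes, 0.809% were called higher and 0.583% lower, and the list's median difference was 0.33. Akr7a3, an aldehyde reductase that clears aflatoxin aldehydes, gave 0.58, 1.00, 0.69 and 1.06 under hexachloroethane and 3.1, 2.29, 2.17 and 2.84 under 1,2,3-trichloropropane. It differed by -1.77 ± 0.20 (adjusted p = 1.19e-06) and by -1.29 in the treated channel. Gpx2, a glutathione peroxidase, was called against vehicle under both compounds, at 2.3 ± 0.36 under hexachloroethane and 1.12 ± 0.13 under 1,2,3-trichloropropane, a difference of 1.18 ± 0.18 (adjusted p = 4.3e-05). Its treated channels differed by 2.35, and its vehicle level was itself called, 1.17 higher on the hexachloroethane slide. The called genes Akr7a3 and Gpx2 were thus higher under different compounds. At the adjusted p alone 9 of the 25 were higher and 2 lower under hexachloroethane, beside 16.9% and 18.1% of all genes.

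The enzymes that add glucuronic acid or sulfate also divided. Of 20 tested, 1 was called higher and 5 lower under hexachloroethane, beside 0.809% and 0.583% of all genes. Ugt2b7, a glucuronosyltransferase of steroids and drugs, gave 1.35, 2.41, 2.37 and 2.02 under 1,2,3-trichloropropane. In the rats given hexachloroethane its probe was not well above background on any of 4 arrays, against all 4 under 1,2,3-trichloropropane, so its level there is only a bound. It was at least 4.17-fold higher under 1,2,3-trichloropropane in the treated channel (measured log2 ratio difference -2.04 ± 0.16, adjusted p = 1.7e-08). That bound sets the mean of the bright group against, on each dim array, the higher of the probe's own signal and the lowest signal well above background. Ugt2b1, another glucuronosyltransferase, was called against vehicle under both compounds, at 2.43 ± 0.14 under hexachloroethane and 1.29 ± 0.09 under 1,2,3-trichloropropane. Its difference of 1.14 ± 0.14 (adjusted p = 4.54e-06) was of nearly the same size in the treated channel, at 1.27. The sulfotransferases Sult1c2 and Sult2a6 were lower under hexachloroethane, by -1.31 ± 0.18 and -1.28 ± 0.21 (adjusted p = 1.12e-05 and 0.000114), and their treated channels differed by -0.69 and -0.68, under the 2-fold limit.

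Mt1 gave the largest difference among named genes on the side of 1,2,3-trichloropropane. It encodes metallothionein, a small protein that binds zinc and copper and is switched on by metals, glucocorticoids and oxidative stress. Its ratios were 2.09, 0.91, 2.36 and 2.62 under 1,2,3-trichloropropane and -1.13, -0.98, -0.90 and -0.48 under hexachloroethane. The groups did not overlap, the difference was -2.87 ± 0.37 (adjusted p = 6.22e-06), and the treated channel gave -3.29. Slc39a4, which imports zinc, moved the other way by 1.16 ± 0.14 (adjusted p = 2.26e-06), with 1.52 in the treated channel, and the other 4 genes of metal handling tested were not called. The Mt1 promoter is shown because metals act on this gene through metal response elements. The letters TGCNCNC, a loose form of their core in which N is any base, were searched on both strands. The RefSeq window of 300 bases at chr19:10832926-10833225 (GRCr8, minus strand), from 250 bases before to 50 after the start, holds 7 matches, in capitals, the first beginning at base -176 and the last at base -26:
Mt1 promoter: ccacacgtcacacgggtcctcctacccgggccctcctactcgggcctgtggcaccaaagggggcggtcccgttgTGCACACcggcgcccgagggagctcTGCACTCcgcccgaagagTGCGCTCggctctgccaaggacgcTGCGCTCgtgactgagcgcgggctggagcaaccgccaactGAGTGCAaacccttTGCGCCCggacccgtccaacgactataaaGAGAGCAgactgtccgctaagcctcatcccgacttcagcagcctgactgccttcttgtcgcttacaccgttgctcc

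At least 1 match to these letters occurs in 50.1% of the 27457 rat promoters of that length, and 7 or more in 0.0983%. A match to this loose pattern describes the sequence and does not show that it is a metal response element or that a factor bound it.

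Proteasome subunits formed a group that the 2-fold limit would hide. The proteasome is the barrel-shaped complex that breaks down tagged proteins. None of its 23 subunits tested reached 2-fold, but 21 were higher under hexachloroethane at the adjusted p alone and 0 were lower, beside 16.9% of all genes higher at that rule. The list median of the ratios lay between 0.50 and 0.60 on the 4 arrays of hexachloroethane and between -0.13 and -0.02 on those of 1,2,3-trichloropropane, and the median difference was 0.58. The subunits named here were chosen after their values were seen. Psmd2, of the regulatory cap, gave 0.83, 1.05, 0.96 and 0.98 under hexachloroethane and 0.23, 0.16, 0.08 and 0.20 under 1,2,3-trichloropropane, a difference of 0.79 ± 0.07 (adjusted p = 6.53e-08). Psma1, of the core ring, differed by 0.77 ± 0.07 (adjusted p = 9.19e-08). In the treated channel Psmd2 differed by 0.63 and Psma1 by 0.66. The 2 subunits that did not pass were Psmb8 and Psmb9, which replace standard subunits in the immunoproteasome, with differences of 0.19 ± 0.13 and 0.14 ± 0.19 (adjusted p = 0.264 and 0.605). In the treated channel the list median was 0.50 and in the vehicle channel -0.16. Of 22 subunits with a promoter in the RefSeq table, 3 held the antioxidant response element core TGACNNNGC, beside 12.2% of all promoters.

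**Figure D4:**
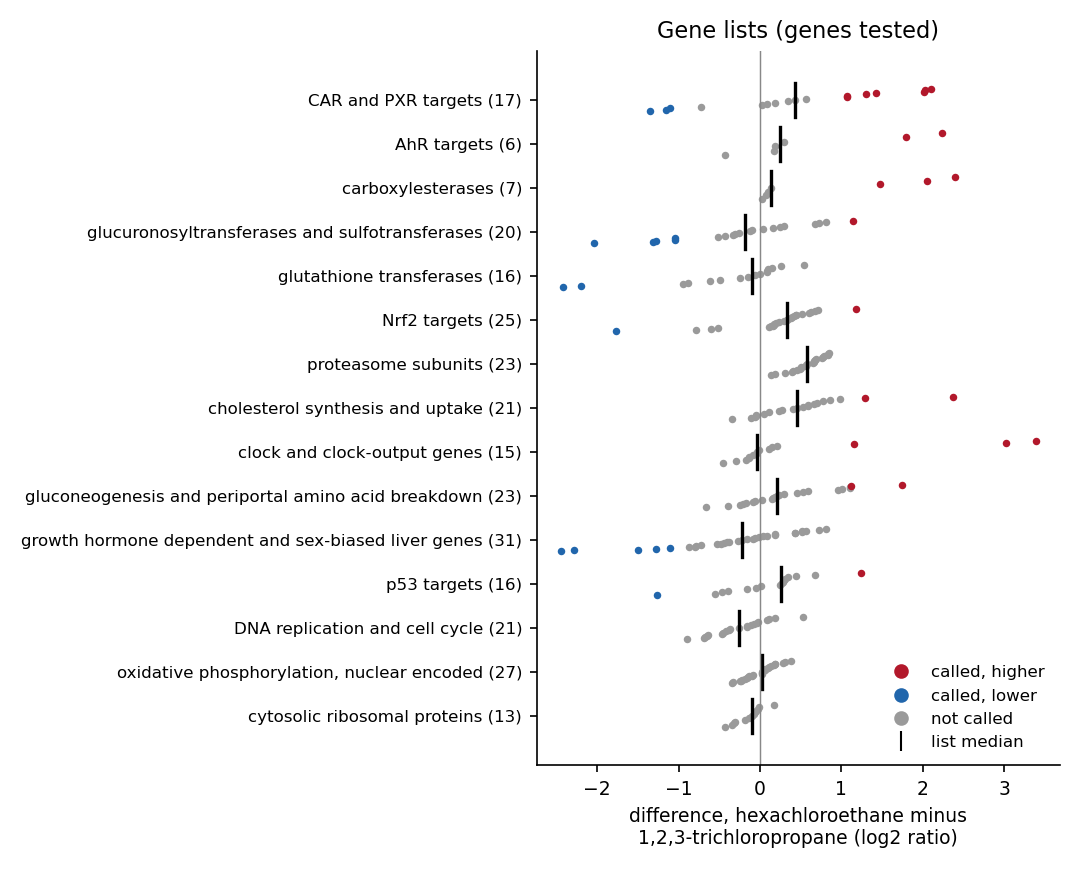
Difference between hexachloroethane and 1,2,3-trichloropropane (x axis, log2 ratio) for the members of 15 gene lists, 1 point a gene, with the list median as a black bar and the number of genes tested in parentheses. The proteasome points all lie above 0 without a call, while the CAR and PXR list has 7 called members on the right and 3 on the left.

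Cholesterol genes that passed the adjusted p were, with 1 exception, higher under hexachloroethane. Of 21 genes of cholesterol synthesis and uptake tested, 2 were called higher and 0 lower, beside 0.809% and 0.583% of all genes. At the adjusted p alone 11 were higher and 1 lower, beside 16.9% and 18.1% of all genes. The median difference was 0.45 in the ratio, 0.60 in the treated channel and 0.14 in the vehicle channel. Insig1 was the 1 gene of the list called in the vehicle channel. Insig1, which holds back the pathway's transcription factor in the endoplasmic reticulum, gave 1.02, 0.64, 0.52 and 0.54 under hexachloroethane. Under 1,2,3-trichloropropane it gave -0.83, -0.27, -2.61 and -3.06, so arrays 3 and 4 were far below arrays 1 and 2. Its difference was 2.37 ± 0.53 (adjusted p = 0.00168), but the treated channel alone gave 0.91 (adjusted p = 0.154). None of the 16 genes with a promoter in the RefSeq table held the sterol element TCACNCCAC, which 1.13% of all promoters hold.

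Noct, Tsku and Lpin1 are genes whose liver level follows the time of day. Noct, a rhythmic enzyme first known as a deadenylase, gave 2.47, 0.46, 0.09 and 1.21 under hexachloroethane and -1.69, -0.59, -3.33 and -3.74 under 1,2,3-trichloropropane. The groups did not overlap and the difference of 3.39 ± 0.72 was the largest of all genes (adjusted p = 0.00112), yet the rats of each group were far apart. In the treated channel it was 0.44 ± 0.71 (adjusted p = 0.647), and the vehicle channels differed by -2.95, lower on the hexachloroethane slide. Tsku, a secreted liver protein, gave 1.29, 1.35, 0.93 and 1.95 under hexachloroethane and -0.50, -0.20, -2.44 and -3.41 under 1,2,3-trichloropropane. Here the treated channel kept 1.73 ± 0.50 of the difference of 3.02 ± 0.50 (adjusted p = 0.00885 for the treated channel and 0.000105 for the ratio). For Lpin1, a phosphatidate phosphatase of fat synthesis, the ratio was 1.16 ± 0.43 higher under hexachloroethane (adjusted p = 0.0395), whereas the treated channel differed by -1.72 ± 0.43 (adjusted p = 0.00279). The difference of Lpin1 in the ratio missed the threshold with the 8 arrays alone (adjusted p = 0.0831) and without any 1 of 6 arrays, all 4 of hexachloroethane and arrays 3 and 4 of 1,2,3-trichloropropane (0.81 to 1.19). Noct, Tsku and Lpin1 were the genes called higher among 15 of the clock list tested, beside 0.809% of all genes. The remaining 12 genes of the clock list, the core clock genes among them, were not called, and the list median was -0.04.

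Zfp354a, Nr0b2 and Myc, regulators of transcription, were called in the ratio and not in the treated channel. Zfp354a, a zinc finger protein of liver and kidney, gave 1.58, 0.62, 1.41 and 1.96 under hexachloroethane and -0.42, 0.20, -3.26 and -2.79 under 1,2,3-trichloropropane, again with arrays 3 and 4 far below arrays 1 and 2. Its ratio difference of 2.96 ± 0.66 (adjusted p = 0.0017) stood against a treated channel difference of -0.65 (adjusted p = 0.429). Nr0b2, the receptor SHP that represses bile acid synthesis, differed by 2.03 ± 0.53 in the ratio (adjusted p = 0.0053) and by -0.86 in the treated channel (adjusted p = 0.183). Myc gave -1.54, -0.22, -1.64 and -1.40 under hexachloroethane and 0.94, 0.56, 0.09 and 1.49 under 1,2,3-trichloropropane. The ratio was -1.97 ± 0.52 lower under hexachloroethane (adjusted p = 0.00583), and the treated channel differed by 0.81 (adjusted p = 0.222). For Zfp354a, Nr0b2, Lpin1 and Myc the vehicle channels differed by 2.78 or more in size and the treated channel value had the opposite sign to the ratio, but of these 4 only Lpin1 passed the threshold in that direction.

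Gadd45g, a growth arrest gene, gave -2.27, -1.22, -2.78 and -2.46 under hexachloroethane and 1.08, -0.18, -0.53 and 1.78 under 1,2,3-trichloropropane, a difference of -2.72 ± 0.55 (adjusted p = 0.000704) that was -1.15 in the treated channel (adjusted p = 0.102). Gadd45a differed by -1.27 ± 0.34 (adjusted p = 0.00595) with overlapping arrays and by 0.08 in the treated channel (adjusted p = 0.866). Of 16 p53 targets tested, Gadd45a was the 1 called lower and Gdf15 the 1 called higher, beside 0.583% and 0.809% of all genes. Gdf15, a stress cytokine, differed by 1.24 ± 0.23 (adjusted p = 0.000274), with 1.04 in the treated channel. At the adjusted p alone 7 of the 16 were higher and 3 lower, beside 16.9% and 18.1% of all genes, with a median difference of 0.26. In the treated channel the median of these 16 was only 0.01, and in the vehicle channel -0.12. The direct p53 targets Cdkn1a and Mdm2 differed by -0.05 ± 0.22 and 0.01 ± 0.06 (adjusted p = 0.891 and 0.882). Mdm2 lay between -0.14 and 0.15 on all 8 arrays. None of 21 genes of DNA replication and the cell cycle was called, with a median difference of -0.26.

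Amino acid breakdown and glucose production, tasks of periportal hepatocytes, gave 2 called genes of 23, both higher under hexachloroethane, beside 0.809% of all genes. Tat, which starts tyrosine breakdown and responds to glucocorticoids, gave 0.75, -0.43, -1.09 and -1.09 under hexachloroethane and -1.49, -0.81, -3.14 and -3.42 under 1,2,3-trichloropropane, with overlapping arrays. The difference of Tat, 1.75 ± 0.54 (adjusted p = 0.0153), missed the threshold without array 1 of hexachloroethane or without array 3 or 4 of 1,2,3-trichloropropane (1.34 to 1.44, adjusted p = 0.0599 to 0.0686), and the treated channel gave 0.21. Got1, an aspartate aminotransferase, differed by 1.12 ± 0.25 in the ratio (adjusted p = 0.00139) and by -0.67 in the treated channel. Cebpb is a transcription factor of the amino acid and acute phase responses. The difference of Cebpb was 1.41 ± 0.42 (adjusted p = 0.0122), with 0.22 in the treated channel, and 1.12 without array 4 of 1,2,3-trichloropropane (adjusted p = 0.0545). Glul, the glutamine synthetase of the cells around the central vein, gave -1.47, -1.27, -1.11 and -0.98 under hexachloroethane and stayed between -0.13 and 0.09 under 1,2,3-trichloropropane. Its difference of -1.16 ± 0.11 (adjusted p = 2.03e-07) was -1.05 in the treated channel. Of 9 perivenous genes tested, Glul was the 1 called lower and Cyp1a2 the 1 called higher, beside 0.583% and 0.809% of all genes. The list median was -0.23.

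Of 31 genes tested that follow growth hormone and sex, 5 were called lower and 0 higher under hexachloroethane, beside 0.583% and 0.809% of all genes. The list median was -0.22 in the ratio, but 0.14 in the treated channel and 0.19 in the vehicle channel. In the vehicle channel 4 of the 31 were called. Car3, a carbonic anhydrase abundant in male rat liver, gave -3.01, -2.88, -2.75 and -3.05 under hexachloroethane and -0.53, -0.58, -0.45 and -0.31 under 1,2,3-trichloropropane. The 4 rats of each group were close together, and the groups differed by -2.45 ± 0.28 (adjusted p = 1.51e-06), with -2.18 in the treated channel. Adh1c, an alcohol dehydrogenase, differed by -1.5 ± 0.19 (adjusted p = 6.02e-06), with -0.94 in the treated channel. Serpina7, the thyroxine carrier of blood, gave -2.73, -1.05, -2.17 and -1.53 under hexachloroethane and 0.10, -0.06, 0.49 and 1.15 under 1,2,3-trichloropropane, a difference of -2.29 ± 0.51 (adjusted p = 0.00153) of which -1.16 lay in the treated channel (adjusted p = 0.0625).

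**Figure D5:**
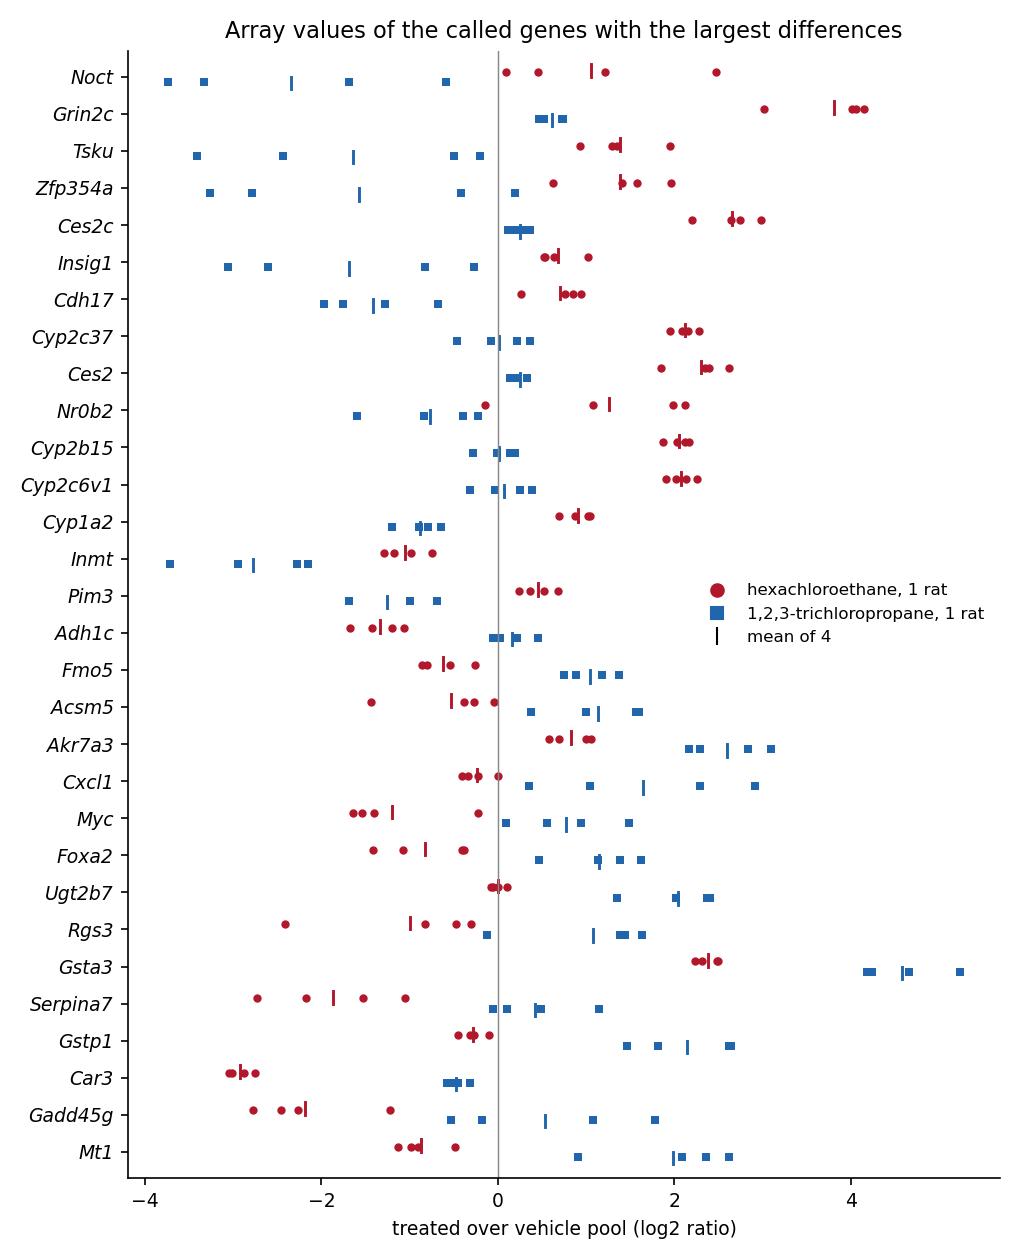
Log2 ratio of treated over vehicle pool (x axis) on each of the 8 arrays for the 15 called genes with the largest difference in each direction whose arrays did not overlap, 1 point a rat and a bar for the mean of 4. The rats of 1,2,3-trichloropropane fall into a wide spread for Noct, Tsku, Zfp354a and Insig1, while both groups are tight for Ces2c, Cyp2b15 and Car3.

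Several other called genes spoke to single functions. Inmt, which methylates indoles, fell against vehicle under both compounds, to -1.05 ± 0.24 under hexachloroethane and -2.77 ± 0.72 under 1,2,3-trichloropropane, 1.72 ± 0.46 apart (adjusted p = 0.00604) with 2.69 in the treated channel. Cdh17, a cadherin, fell against vehicle under 1,2,3-trichloropropane, to -1.42 ± 0.57, and differed by 2.12 ± 0.46 (adjusted p = 0.00124), with 1.53 in the treated channel. Cxcl1, a chemokine that draws neutrophils, was raised unevenly by 1,2,3-trichloropropane, with ratios of 2.91, 1.05, 0.35 and 2.29 against values between -0.41 and 0.00 under hexachloroethane. Its difference of -1.89 ± 0.46 (adjusted p = 0.00327) lay in the treated channel, at -1.98. Cd14, the lipopolysaccharide co-receptor of macrophages, differed by -1.39 ± 0.19 (adjusted p = 1.07e-05) in the ratio but by 0.04 in the treated channel. Foxa2, a hepatocyte transcription factor, differed by -1.97 ± 0.37 (adjusted p = 0.000401), with -1.03 in the treated channel and 0.94 in the vehicle channel. Acsm5, a medium-chain acyl-CoA synthetase of mitochondria, differed by -1.66 ± 0.53 in the ratio (adjusted p = 0.0184) and by 0.90 in the treated channel (adjusted p = 0.14). The difference of Acsm5 in the ratio missed the threshold without array 1 of hexachloroethane or without array 1 or 4 of 1,2,3-trichloropropane (-1.52 to -1.36). Pim3, a kinase, Fmo5, a flavin-containing monooxygenase, Rgs3, a regulator of G protein signalling, and Cxcl14, a chemokine, differed by 1.71 ± 0.37, -1.66 ± 0.22, -2.08 ± 0.46 and -1.35 ± 0.22, and in the treated channel alone none of these 4 passed the threshold.

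Further lists with no called gene were those for PPARalpha targets (26 tested, median difference 0.05), secreted hepatocyte proteins (27, -0.02), nuclear-encoded oxidative phosphorylation (27, 0.03), ribosomal proteins (13, -0.10) and ER stress (12, 0.02). These medians lie close to the median over all genes of -0.01, and a miss of the threshold does not show that the compounds acted alike on them.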

How the data were processed

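The submitters deposited scanner files per array, read with Agilent Feature Extraction 9.1.3.1 per the submitters' processing notes, holding the intensity of both dyes and a log10 ratio per the file headers. The series table deposited by the authors holds log2 ratios of treated over vehicle. Intensities were background corrected (normexp, offset 50), scaled by loess within each array and averaged over probe copies with limma 3.58.1 in R 4.3.3. Single channels were additionally scaled between arrays (Aquantile). Of 21900 probes, 16085 were well above background on all 4 arrays of any of the 6 compounds in either channel; the brightest probe stood for each of 11500 genes, 4757 with a symbol that is not provisional. Names were updated through a RefSeq table (GRCr8).

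All 24 arrays were fitted with 1 mean per compound (lmFit, eBayes; 18 residual and 2.92 prior degrees of freedom), and the contrast was hexachloroethane minus 1,2,3-trichloropropane with Benjamini-Hochberg adjustment over all genes. The pools' own spread is left out, so adjusted p-values against vehicle, between compounds or between vehicle channels are too small by an unknown amount. The script was tested on simulated data. Same-numbered rats deviated together with correlations of 0 to 0.08 and were not paired.

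The compounds, genes and lists were chosen with earlier results of these data known. Named genes were the 15 largest called differences per direction with a symbol that is not provisional and with no overlap of arrays, up to 4 called members per list, and Cyp1a1, Cyp2b1, Mt1, Cdkn1a, Mdm2 and Gstp1. The values of 1 gene that meets this rule are not reported here.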

Additional observations from a re-analysis of the deposited data

Results flagged for a closer look

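Among 100 sets of 4 array values (50 named genes under 2 compounds), 5 had 1 array farther from the others than Dixon's critical value allows; chance flags about 1 set in 20. In all 5 the array was number 2 of its compound. Grin2c was at 3.02 on array 2 of hexachloroethane, against 4.01 to 4.15 on the other 3. Cyp1a1 was at 0.98 on the same array, against 3.09 to 3.51, and Myc at -0.22, against -1.64 to -1.40. On array 2 of 1,2,3-trichloropropane Cd14 was at 0.35, against 0.91 to 0.96, and Rgs3 at -0.12, against 1.38 to 1.63.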

How the results depend on the processing

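The 160 genes called between the compounds became 383 with the log ratio of the scanner software, 388 with the series table (191 higher, 197 lower), 260 in the treated channel alone, 294 with every kept probe on its own and 4023 at the adjusted p alone; leaving out 1 array gave 137 to 183. With the replicate block the count was 159, and 106 and 105 against vehicle. Against vehicle, hexachloroethane called 651 genes with median centring in place of loess (24 higher, 627 lower), 293 with the scanner's log ratio and 296 with the series table, and 1,2,3-trichloropropane 442 (36 higher, 406 lower), 284 and 277; leaving out 1 array gave 91 to 121 and 90 to 129. Median centring put the median of all genes at -0.33 and -0.28 against vehicle and at -0.07 between the compounds, beside -0.02, -0.02 and -0.01 with loess. The vehicle channel gave 107 genes without background correction in place of 199, and 198 to 201 without 1 array. All 50 named genes kept their direction and side of the threshold under the series table, the scanner's log ratio, no background correction and the replicate block. In the treated channel alone 30 did, 11 lost the call, and 9 turned: Zfp354a to -0.65, Nr0b2 to -0.86, Lpin1 to -1.72, Got1 to -0.67, Mdm2 to -0.11, Gadd45a to 0.08, Cd14 to 0.04, Acsm5 to 0.90 and Myc to 0.81. Mdm2, uncalled, also turned to -0.02 with median centring and ran from -0.02 to 0.07 without 1 array, and Cdkn1a, uncalled, from -0.3 to 0.15. With the 8 arrays alone the difference of Tat (adjusted p = 0.0717) and the difference of Lpin1 (adjusted p = 0.0831) missed the threshold. Lpin1 lost it without any of 6 arrays (all of hexachloroethane, 3 and 4 of 1,2,3-trichloropropane; 0.81 to 1.19) and Acsm5 without array 1 of hexachloroethane or arrays 1 or 4 of 1,2,3-trichloropropane (-1.52 to -1.36). Causes were not tested. The pairs of slides in the vehicle channel were chosen after seeing the data.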
